A study of Mus musculus with 8 samples.

Results

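The 10 genes described here carry the conversation between a mouse oocyte and the granulosa cells around it. They were chosen by function, by name, among the 24860 genes measured: the growth factors Gdf9, Bmp15, Bmp6 and Fgf8, the receptors Bmpr2, Bmpr1a and Tgfbr1, the receptor tyrosine kinase Kit and its ligand Kitl, and the gap junction gene Gja4. RNA was measured in MII oocytes, eggs that have matured and wait for sperm in metaphase II, taken from C57BL/6 females aged 6 weeks. One group carried the genotype Esrp1-/- (Esrp1-KO, 4 libraries) and the other was wild type (WT, 4 libraries), both at postnatal day 42. ESRP1 is an RNA-binding protein known for its control of alternative splicing in epithelial cells, and the comparison asks which egg transcripts differ without it. Each library came from a tube of 15 lysed oocytes, amplified with Smart-seq2, a full-length cDNA method that starts from poly(A) tails and keeps no record of the RNA strand. The design text speaks of biological replicates, but the labels do not tie tubes to animals, so the p-values speak only of variation from tube to tube. How the allele was made and in which cells it is lost is not given in the sources used here.

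As background, GDF9 and BMP15 are secreted by the growing oocyte and act on granulosa cells, where they bind the type II receptor BMPR2 together with type I receptors, TGFBR1 for GDF9 and BMP receptors for BMP15. In the other direction, granulosa cells make KIT ligand, which binds KIT on the oocyte and drives its growth through PI3K signalling. Connexin 37, the product of Gja4, forms the gap junctions through which granulosa cells feed the oocyte. A mature egg has largely left these exchanges behind, and its transcripts are those it still stores.

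Values are FPKM (fragments scaled to gene length and library depth), relative levels that divide by gene length and compare between genes only roughly. The length that gives back whole reads joins all annotated exons of a gene and can exceed its mRNA. It is 8911 bases for Kit and 17983 for Bmpr2, whose longest coding transcripts have 5241 and 12899, and 1685 for Gja4 by either measure. Read totals worked out from the FPKM lay between 24910433 and 32337966 in Esrp1-KO and between 25018182 and 28932109 in WT. The targeted gene, Esrp1, averaged 3.30 ± 0.68 FPKM in Esrp1-KO and 17.5 ± 1.42 FPKM in WT (SD, n = 4 each), so that Esrp1-KO held 18.8% of the WT level. All 14 genes of an oocyte marker list were expressed, 7 of them higher and 1 lower in Esrp1-KO, where 13.9% of all 8021 genes tested were higher and 23.1% lower. Of 14 granulosa and cumulus cell markers in the files, 12 stayed under 1 FPKM in every library. The list's summed level was 3.03 to 4.35 FPKM in Esrp1-KO and 7.50 to 9.26 FPKM in WT, most of it from the aromatase gene Cyp19a1 (1.87 ± 0.39 FPKM in Esrp1-KO and 6.10 ± 0.71 FPKM in WT) and the nuclear receptor gene Nr5a2 (0.736 ± 0.17 FPKM in Esrp1-KO and 1.18 ± 0.21 FPKM in WT). The FSH receptor gene Fshr, the follistatin gene Fst and the transcription factor gene Foxl2 stayed under 0.1 FPKM in every library. A macrophage and leukocyte list summed to 3.73 to 12.05 FPKM in Esrp1-KO and 3.08 to 4.79 FPKM in WT; its highest genes on average were the complement gene C1qb and the lysosomal gene Cd68, and Esrp1-KO replicate 3 held 5.44 FPKM of Lyz2, the macrophage lysozyme, where the other 7 libraries held 0.728 FPKM or less. A theca and stroma list had 5 of 6 genes under 0.1 FPKM in every library, Pdgfra among them, and only Dcn, a matrix proteoglycan gene, above it (2.12 ± 0.15 FPKM in Esrp1-KO and 0.665 ± 0.32 FPKM in WT). Red blood cell genes summed to at most 0.134 FPKM in Esrp1-KO and 0.449 FPKM in WT. WT replicate 1 listed 20047 genes above 0, where the other 7 libraries listed 15201 to 18100.

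The 10 genes differed widely in level. Gdf9 and Bmp15 stood far above the rest: over all 8 libraries Gdf9 was the 17th and Bmp15 the 38th most abundant of the 8021 genes tested, those with a mean of at least 1 FPKM. Gdf9 alone made up 0.847% of the summed FPKM in Esrp1-KO and 0.830% in WT. Below Bmp15 the level dropped 109-fold to the next member in Esrp1-KO, Kit, and 74.2-fold to the next in WT, Bmpr2. In both genotypes Kit, Bmpr2 and Gja4 formed a middle group whose ranges over the libraries overlapped. Their order, and the size of the drop above them, depend on the length used for each gene. Bmpr1a came next and Fgf8 was lowest, and neither overlapped its neighbours in the order in either group. Between them, Kitl, Tgfbr1 and Bmp6 changed places. Tgfbr1 and Bmp6 overlapped and lay above Kitl in Esrp1-KO, while in WT Kitl led, overlapping Tgfbr1, which in turn overlapped Bmp6. Though not next to Bmpr1a in the order, Bmp6 reached 3.89 FPKM in Esrp1-KO replicate 1, above every Bmpr1a value of that group (3.22 to 3.86 FPKM).

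**Figure D1:**
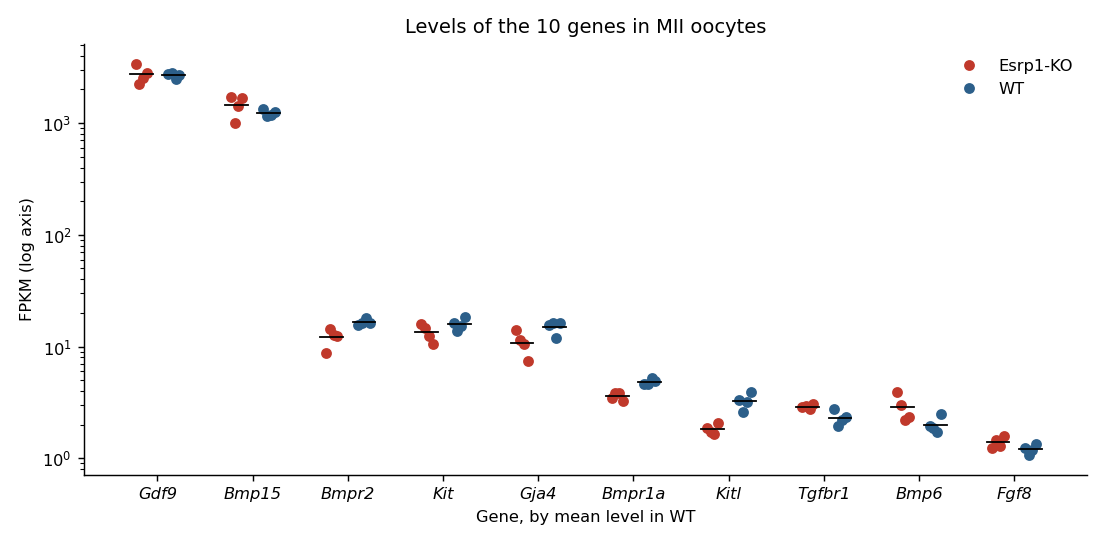
FPKM of the 10 genes on a log axis, 1 point per library (4 Esrp1-KO in red on the left of each pair, 4 WT in blue on the right) and a black line at the group mean, ordered by the WT mean. Gdf9 and Bmp15 lie at 1010 FPKM or more in all 8 libraries, and the other 8 genes at 18.5 FPKM or less.

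The ends of these transcripts bear on the measurement, since Smart-seq2 reads mRNAs through their poly(A) tails and stored oocyte mRNAs are known to change tail length through TTTTAT elements near their ends. The windows of 30 bases below, from GENCODE M21 on GRCm38, show these ends for the abundant growth factor genes and the 3 genes that fell in Esrp1-KO. Capitals mark the polyadenylation signal (AATAAA or ATTAAA) and TTTTAT, and each window ends at the annotated transcript end except for Gdf9, where it stops 15 bases short. They lie at chr11:53437860-53437889 on the plus strand (Gdf9), chrX:6314107-6314136 on the minus strand (Bmp15), chr10:100100387-100100416 on the plus strand (Kitl), chr1:59878985-59879014 on the plus strand (Bmpr2) and chr14:34410734-34410763 on the minus strand (Bmpr1a).
Gdf9: ctgtggTTTTATgtgacggaagAATAAAct
Bmp15: agAATAAAttttcatttatgtgtgctttgc
Kitl: taAATAAAgaaTTTTATgcaccatcataaa
Bmpr2: tttttagATTAAAgaccaaatcttacatgc
Bmpr1a: gcaAATAAActgctccaTTTTATtgccaga
Searched on the transcript strand, AATAAA or ATTAAA lay in the last 40 bases of 8 members (all but Bmp6 and Fgf8) and in 15325 of 21901 genes. TTTTAT lay in the last 100 bases of 4 members, Gdf9, Kitl, Bmp6 and Bmpr1a, and in 12.9% of those genes. Of the 3 that fell, Kitl and Bmpr1a hold TTTTAT and Bmpr2 does not, and the fold change of Gdf9, which also holds it, was near 0. Bmp6, the other member with TTTTAT, had a log2 fold change of 0.34, on the higher side, which did not pass (limma, adjusted p = 0.126). Only this exact sequence was searched, in the longest coding transcript of each gene, and tail length was not measured. Any part of it in the fold changes was not tested.

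The base composition upstream of the start varied among the members. The runs below are from RefSeq on GRCm38.p6, for Bmp15 and the first of 2 Tgfbr1 starts in the table the 250 bases before the start (chrX:6320725-6320974, minus strand, and chr4:47352972-47353221, plus strand), and for Bmpr1a the 109 bases of that window that lie outside its annotated exons (chr14:34502688-34502796, minus strand). Capitals mark 3 motifs found on either strand, TATAAA, the homeodomain core TAATTA and the GC box GGGCGG, none of which overlap in these runs. TATAAA is the sequence of the TATA box, but it was searched at any distance from the start. In Bmp15 it lies on the opposite strand, as TTTATA, and is not shown to be a TATA box.
Bmp15: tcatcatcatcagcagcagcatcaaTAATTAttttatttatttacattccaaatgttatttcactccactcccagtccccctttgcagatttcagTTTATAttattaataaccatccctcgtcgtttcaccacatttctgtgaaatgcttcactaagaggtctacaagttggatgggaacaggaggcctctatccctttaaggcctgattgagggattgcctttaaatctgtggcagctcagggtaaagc
Tgfbr1: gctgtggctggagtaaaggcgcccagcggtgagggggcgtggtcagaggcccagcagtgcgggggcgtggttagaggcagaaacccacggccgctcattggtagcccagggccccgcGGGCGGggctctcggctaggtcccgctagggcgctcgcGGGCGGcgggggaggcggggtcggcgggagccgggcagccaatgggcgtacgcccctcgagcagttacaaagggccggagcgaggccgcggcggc
Bmpr1a: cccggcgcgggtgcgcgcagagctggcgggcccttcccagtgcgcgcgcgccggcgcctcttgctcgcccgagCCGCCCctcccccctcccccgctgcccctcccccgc
GC content was 40.4% in the Bmp15 window and 74.8% in the printed Tgfbr1 window, while the window of the second Tgfbr1 start (chr4:47385966-47386215, plus strand) had 52.8%, beside a median of 52.4% over 32851 promoters. Of the 8 members with a promoter in the table, 7 held GGGCGG in at least 1 window and Bmp15 did not. The second Tgfbr1 window also lacked it, and 32.7% of all promoters hold it. Not all of these windows lie outside the gene. Those of Bmpr2 and Bmp6 fall wholly within the gene's own annotated exons (250 of 250 bases). For Kitl 191 bases do so, for Bmpr1a 141, and for the Kit windows 71 and 75. On either strand and at any position, TATAAA was found for Bmp15 and Kitl (12.4% of all promoters) and TAATTA for Bmp15 (4.84%). Gdf9 and Fgf8 were not matched.

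Among the 4 growth factor genes none passed the test in either direction, and the means of Gdf9, the most abundant of them, differed by less than the spread between libraries. Gdf9 (chr11:53431023-53437904, plus strand) had 3410, 2233, 2546 and 2804 FPKM in the 4 Esrp1-KO libraries and 2772, 2829, 2489 and 2673 FPKM in the 4 WT libraries. Esrp1-KO spanned more than the WT range, with replicate 1 above it and replicate 2 below it. Its log2 fold change, on log2(FPKM + 1) like those below unless another scale is named, came to 0.01 with an SE of 0.14 (limma, adjusted p = 0.943; later ± values beside fold changes are SE as well). Its 95% interval ran from 0.818-fold to 1.25-fold, and the sign turned under some alternatives.

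Bmp15 (chrX:6314107-6320721, minus strand), the X-linked partner of Gdf9, had 1715, 1010, 1421 and 1694 FPKM in Esrp1-KO and 1344, 1157, 1176 and 1246 FPKM in WT. Replicates 1, 3 and 4 of Esrp1-KO lay above all WT libraries and replicate 2 below them all. The log2 fold change of 0.22 ± 0.17 did not pass (limma, adjusted p = 0.343). Without Esrp1-KO replicate 2 it was 0.38 and did (adjusted p = 0.0282), and without Esrp1-KO replicate 4 it was 0.14 and did not (adjusted p = 0.607). Replicate 2 is the only Esrp1-KO library below WT. Leaving it out sets the groups apart by choice, so the p without it is no support. Across 8 libraries both growth factor genes stood on 77004 to 223984 reads per library.

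The spread itself differed. The coefficient of variation of Gdf9 was 18.2% in Esrp1-KO and 5.54% in WT, and that of Bmp15 was 22.5% in Esrp1-KO and 6.86% in WT. It was larger in Esrp1-KO for 8 of the 10 members, all but Kitl and Tgfbr1, and for 62.9% of all tested genes, whose median was 21.7% in Esrp1-KO and 16.9% in WT. These are descriptions of 4 libraries each, with no test.

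Bmp6, a BMP that oocytes also make, had 3.89, 2.99, 2.20 and 2.33 FPKM in Esrp1-KO and 1.94, 1.87, 1.703 and 2.51 FPKM in WT. Esrp1-KO replicates 1 and 2 lay above all WT libraries, and the others within the WT range. Its mean was 2.85 ± 0.77 FPKM in Esrp1-KO and 2.01 ± 0.35 FPKM in WT, a log2 fold change of 0.34 ± 0.16 that did not pass (limma, adjusted p = 0.126). Of its exon bases, 5.74% also lie in exons of Txndc5 on the opposite strand, which this library type cannot tell apart. Fgf8, which in the mouse acts with BMP15 on cumulus cells, was the lowest member, with 1.24 to 1.60 FPKM in Esrp1-KO and 1.07 to 1.33 FPKM in WT, on only 49 to 61 reads per Esrp1-KO library and 36 to 52 per WT library. Its log2 fold change was 0.12 ± 0.12 (limma, adjusted p = 0.451).

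Among the receptors, Bmpr2 and Bmpr1a fell in Esrp1-KO and, with Kitl below, were the only members that passed, 3 of 10, all of them lower. Over all 8021 genes tested 36.9% passed, 23.1% lower and 13.9% higher, so the members' share was no larger than the background. The median log2 fold change of the members was −0.12, beside −0.06 over all genes. These are relative levels in tubes of eggs, in which less of an mRNA in each egg and fewer eggs that hold it cannot be told apart.

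Bmpr2 (chr1:59763400-59879014, plus strand), the type II receptor of GDF9 and BMP15, had 8.83, 14.3, 12.6 and 12.5 FPKM in Esrp1-KO and 15.6, 16.2, 18.1 and 16.4 FPKM in WT. Each Esrp1-KO library lay below each WT library, and replicate 1 was lowest. The mean stood at 72.8% of WT, a log2 fold change of −0.45 ± 0.15 (limma, adjusted p = 0.0408). Bmpr1a (chr14:34410734-34503341, minus strand), a type I BMP receptor, had 3.48, 3.84, 3.86 and 3.22 FPKM in Esrp1-KO and 4.59, 4.64, 5.20 and 4.96 FPKM in WT. The groups again did not overlap, and the mean stood at 74.2% of WT. The log2 fold change was −0.35 ± 0.11 (limma, adjusted p = 0.0338). Of the gene's exon bases, 4.57% are shared with Gm17110 on the opposite strand.

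Both calls are near the threshold and depend on scaling. TMM scaling, which scales libraries by the bulk of genes, raised log2 fold changes by 0.12 at the median. Over the 8021 genes tested this median was −0.06 as deposited and 0.062 with TMM. It changed sign at a like size, so neither scale set the groups level on it. Lower genes made up 62.5% of those called as deposited and 47.3% with TMM. With it limma gave Bmpr2 −0.30 (adjusted p = 0.131) and Bmpr1a −0.23 (adjusted p = 0.148), neither past the threshold, and 17.9% of all genes passed lower and 19.9% higher. Relative to the median of all genes, the change of Bmpr2 was −0.38 as deposited and −0.37 with TMM, and that of Bmpr1a −0.29 with either. Leaving out 1 library ended the call of Bmpr2 in 7 of 8 cases and that of Bmpr1a in 6 of 8, with a negative sign in each.

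Tgfbr1 (chr4:47353222-47414931, plus strand), the type I receptor used by GDF9, had 2.85, 2.96, 2.76 and 3.05 FPKM in Esrp1-KO and 2.76, 1.93, 2.19 and 2.34 FPKM in WT. Only the lowest Esrp1-KO library, replicate 3, and the highest WT library, replicate 1, met, and otherwise Esrp1-KO lay above WT. The log2 fold change of 0.24 ± 0.12 did not pass as deposited (limma, adjusted p = 0.136) and passed with TMM scaling (0.35, adjusted p = 0.0319), with quantile normalization and with median-of-ratios scaling. Set against the median of all genes, its change was 0.30 as deposited and 0.29 with TMM.

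Kitl (chr10:100015630-100100416, plus strand), KIT ligand, had the largest fold change of the 10 genes as deposited. Its values were 1.85, 1.72, 1.65 and 2.09 FPKM in Esrp1-KO and 3.35, 2.61, 3.203 and 3.93 FPKM in WT. Every Esrp1-KO library lay below every WT library, as in Bmpr2 and Bmpr1a, which makes 3 members with groups apart, where 36.8% of all tested genes had groups apart. The mean was 1.83 ± 0.19 FPKM in Esrp1-KO and 3.27 ± 0.54 FPKM in WT, so that Esrp1-KO held 55.8% of the WT level, on 253 to 354 reads per Esrp1-KO library and 386 to 672 per WT library. The log2 fold change was −0.59 ± 0.13 (limma, adjusted p = 0.00648), and −0.83 by voom on reads recovered from the FPKM. There the pseudocount is added to reads and is small beside 253 or more of them.

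The Kitl call held when each of the 8 libraries was left out (adjusted p from 0.00443 to 0.0225, limma) and with TMM scaling (−0.48, adjusted p = 0.0151). Replicates 1 and 4 alone gave −0.64 (limma, adjusted p = 0.0432) and replicates 2 and 3 alone −0.54, which did not pass (adjusted p = 0.101). In the ovary Kitl is a product of granulosa cells, and Cyp19a1 of the granulosa list fell in Esrp1-KO too (limma, adjusted p = 0.00012). Nr5a2, below the filter and not tested, had 0.566 to 0.966 FPKM in Esrp1-KO and 1.002 to 1.48 FPKM in WT, while Fshr, Fst and Foxl2 were near 0 in both groups. Of the 14 genes of the list, 3 had every Esrp1-KO library below every WT library (Cyp19a1, Nr5a2 and the steroid enzyme gene Hsd3b1, with 0.286 to 0.498 FPKM in Esrp1-KO and 0.572 to 0.913 FPKM in WT) and 1 had them above (the prostaglandin enzyme gene Ptgs2, with 0.198 to 0.5096 FPKM in Esrp1-KO and 0.0233 to 0.175 FPKM in WT). Hsd3b1 and Ptgs2 were also below the filter and not tested. Of all 8021 genes tested, 36.8% had groups that did not overlap, in either direction. That share is for genes above the filter. Of this list only Cyp19a1 is among them, so it is not a like background for the rest. The part of granulosa cells in the Kitl difference was not tested. Without Esrp1-KO replicate 3, the library with Lyz2, the log2 fold change was −0.56 (limma, adjusted p = 0.0210), and without WT replicate 1 it was −0.58 (adjusted p = 0.0197).

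Kit (chr5:75574916-75656722, plus strand), the receptor on the oocyte, had 15.9, 14.7, 12.3 and 10.6 FPKM in Esrp1-KO and 16.4, 13.9, 15.4 and 18.5 FPKM in WT. The groups overlapped, with 2 Esrp1-KO libraries below all of WT. Its log2 fold change was −0.25 ± 0.15 and did not pass (limma, adjusted p = 0.213).

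Gja4 (chr4:127311421-127314039, minus strand), connexin 37, had 14.2, 11.3, 10.5 and 7.43 FPKM in Esrp1-KO and 15.7, 16.3, 11.8 and 16.3 FPKM in WT. All WT libraries but replicate 3 lay above all Esrp1-KO libraries. The mean was 10.8 ± 2.78 FPKM in Esrp1-KO and 15.1 ± 2.17 FPKM in WT. The log2 fold change of −0.46 ± 0.19 had an unadjusted p of 0.0358 and did not pass after adjustment (limma, adjusted p = 0.0833). It passed without Esrp1-KO replicate 1 (−0.59, limma adjusted p = 0.0286) and not without Esrp1-KO replicate 4 (−0.30, adjusted p = 0.202). Replicate 1 is the only Esrp1-KO library within the WT range. Leaving it out sets the groups apart by choice, so the p without it is no support.

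**Figure D2:**
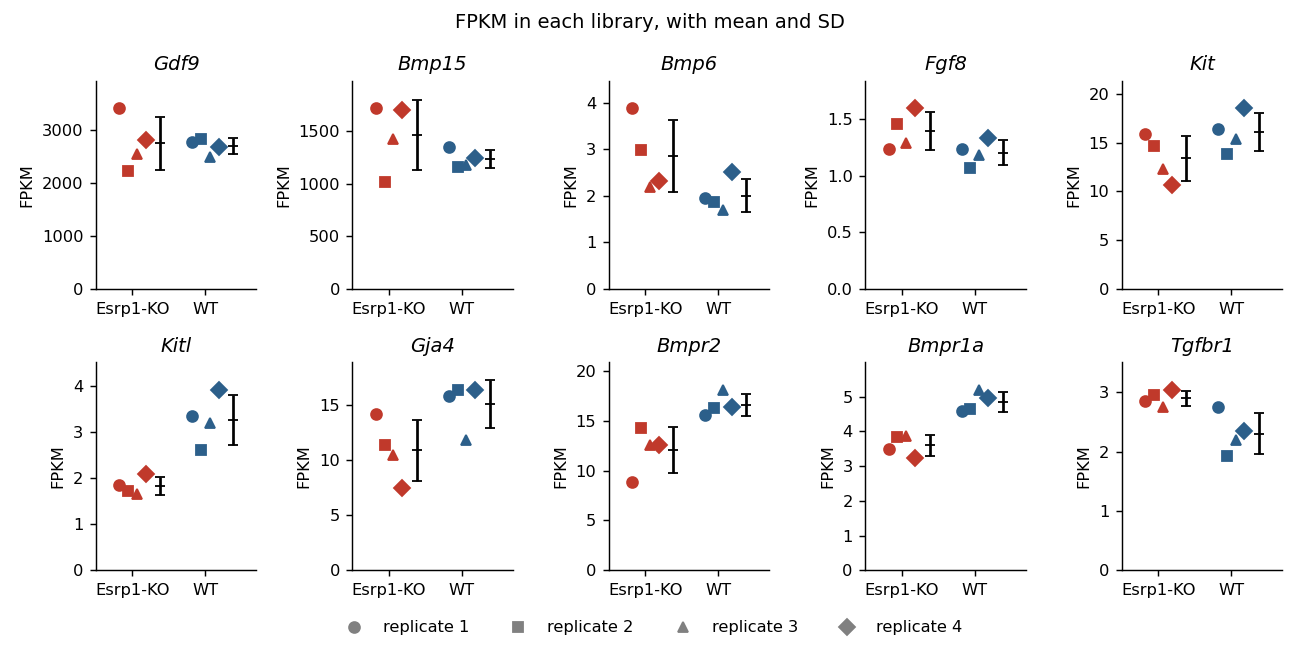
FPKM of each of the 10 genes in each library on linear axes from 0, Esrp1-KO in red on the left and WT in blue on the right, with marker shape for the replicate number and black bars for mean and SD (n = 4). The groups lie apart for Kitl, Bmpr2 and Bmpr1a, and Gdf9 and Bmp15 scatter more widely in Esrp1-KO.

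**Figure D3:**
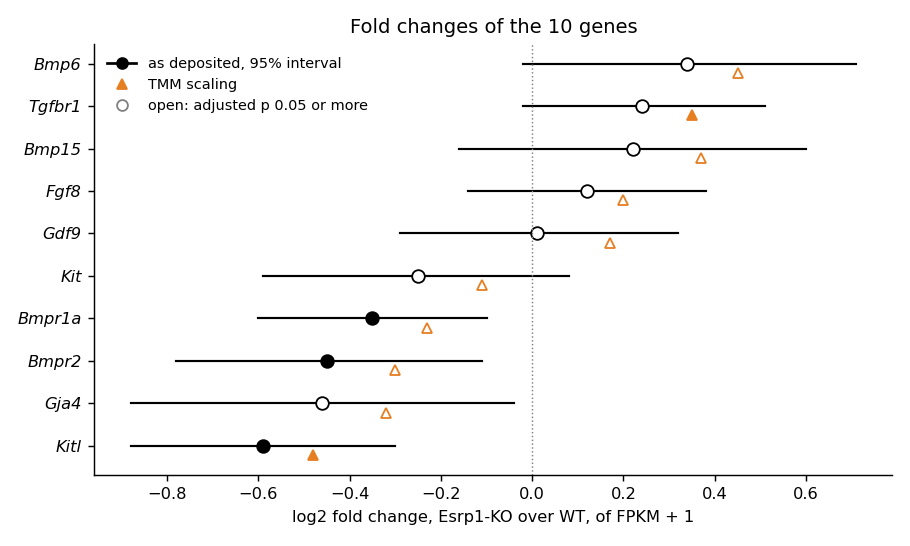
Log2 fold change of each gene, Esrp1-KO over WT, on log2(FPKM + 1), as deposited (circles, with the 95% interval from limma) and with TMM scaling (triangles); filled symbols have an adjusted p under 0.05. TMM shifts every gene to the right, Kitl is filled under both, Bmpr2 and Bmpr1a only as deposited, and Tgfbr1, on the higher side, only with TMM.

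Ratios within a library do not depend on how libraries are scaled, and 4 of them were compared by exact two-sided permutation tests, whose smallest possible p is 0.0286. The ratio of Kit to Kitl, receptor to ligand, was 8.57, 8.54, 7.47 and 5.10 in Esrp1-KO and 4.90, 5.32, 4.82 and 4.72 in WT. Esrp1-KO replicates 1 to 3 lay above all WT libraries and replicate 4 within their range. In each of the 4 same-numbered pairs the ratio was higher in Esrp1-KO. The means were 7.42 ± 1.63 in Esrp1-KO and 4.94 ± 0.26 in WT (n = 4 each, exact p = 0.0571, 0.228 adjusted over the 4 ratios). Over left-out libraries the unadjusted exact p ran from 0.0286, without Esrp1-KO replicate 4, to 0.0857. Replicate 4 is the only Esrp1-KO library within the WT range. Leaving it out sets the groups apart by choice, so that p is no support.

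The ratio of Gdf9 to Bmp15, whose proteins can pair as a heterodimer, was 1.99, 2.21, 1.79 and 1.66 in Esrp1-KO and 2.06, 2.44, 2.12 and 2.14 in WT. Its means were 1.91 ± 0.24 in Esrp1-KO and 2.19 ± 0.17 in WT, and the groups overlapped through Esrp1-KO replicate 2 (exact p = 0.143, 0.286 adjusted). Over left-out libraries the unadjusted exact p ran from 0.0286, without that library, to 0.286. Leaving out the only overlapping library again sets the groups apart by choice. In each of the 4 same-numbered pairs this ratio was lower in Esrp1-KO. By an exact sign-flip test of the pairs both ratios had p = 0.125, the smallest that 4 pairs can give. The ratio of Bmpr2 to Bmpr1a was 3.35 ± 0.60 in Esrp1-KO and 3.42 ± 0.089 in WT (exact p = 0.857 before and after adjustment). That of Bmp6 to Bmp15 was 0.00204 ± 0.00072 in Esrp1-KO and 0.00163 ± 0.00027 in WT (exact p = 0.371, 0.495 adjusted). None of the 4 passed.

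**Figure D4:**
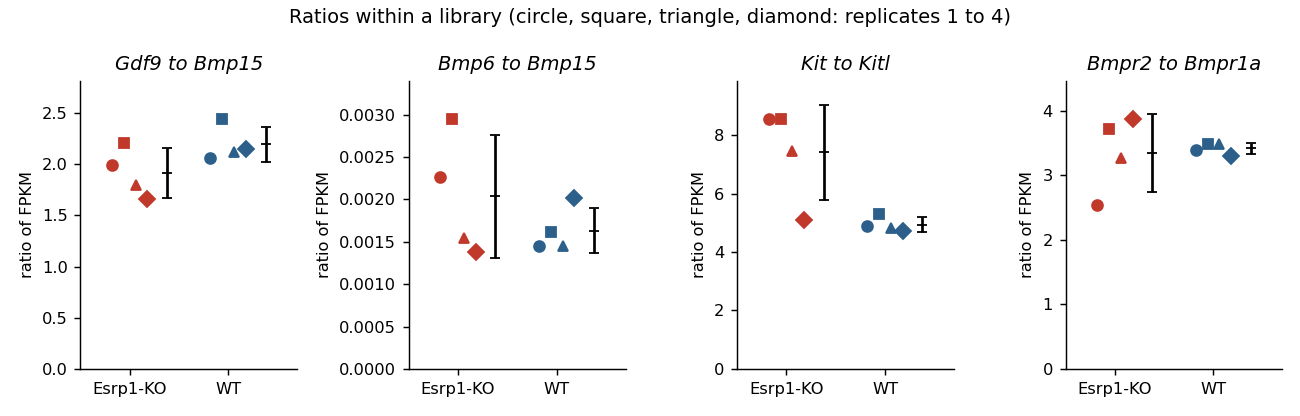
Ratio of the FPKM of 2 genes within each library, Esrp1-KO in red on the left and WT in blue on the right, with marker shape for the replicate number and black bars for mean and SD (n = 4). The Kit to Kitl ratio is above 7 in 3 of 4 Esrp1-KO libraries and between 4.72 and 5.32 in WT.

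Other genes of these pathways were read from 10 lists chosen by function, which hold 201 genes, 173 of them in the files and 78 tested. Of the 78, 7 rose, 20 fell and 51 did not pass (34.6% passed, beside 36.9% of all genes), with a median log2 fold change of −0.17. With TMM scaling 8 rose and 15 fell. Of 4 other ligands of the TGF-beta family tested, none passed, like the 4 growth factor genes above. Tgfb2 had 61.1 ± 6.97 FPKM in Esrp1-KO and 71.2 ± 4.48 FPKM in WT, and Bmp5 had 22.4 ± 3.95 FPKM in Esrp1-KO and 22.9 ± 3.50 FPKM in WT. Both were named after their values were seen. Next to Gdf9 and Bmp15 these were the only family ligands above 5 FPKM on average.

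Among 6 other receptors and co-receptors tested, 3 fell, 1 rose and 2 did not pass, where 23.1% of all genes fell and 13.9% rose. With TMM scaling 2 fell and 1 rose. Acvr1, a type I BMP and activin receptor, had 0.224, 0.349, 0.253 and 0.0806 FPKM in Esrp1-KO and 2.35, 1.17, 1.94 and 2.60 FPKM in WT, far apart in level (log2 fold change −1.28 ± 0.17, limma adjusted p = 0.000464). Tgfbr3, the co-receptor betaglycan, fell to 9.15 ± 4.13 FPKM in Esrp1-KO, against 24.1 ± 7.48 FPKM in WT (adjusted p = 0.00760). The BMP co-receptor gene Rgmb rose to 11.0 ± 1.29 FPKM, against 6.80 ± 1.51 FPKM in WT (adjusted p = 0.0131). Bmpr1b, the type I receptor best known for BMP15 signalling and named after its values were seen, was the most abundant receptor of the family, with 21.5, 43.0, 31.2 and 29.5 FPKM in Esrp1-KO and 42.7, 39.6, 45.0 and 43.3 FPKM in WT. Esrp1-KO replicate 2 lay within the WT range and the other 3 below it, and the log2 fold change of −0.47 ± 0.19 did not pass (adjusted p = 0.0715).

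Inside the cell, 5 of 15 tested SMADs and SMAD regulators fell, none rose and 10 did not pass, where 23.1% of all genes fell and 13.9% rose. With TMM scaling 3 fell and none rose, where 17.9% of all genes fell. Fkbp1a, which encodes FKBP12, a protein that holds type I receptors inactive, had 16.99, 14.2, 16.3 and 21.2 FPKM in Esrp1-KO and 55.0, 51.0, 58.6 and 61.2 FPKM in WT (the smallest p of the list, log2 fold change −1.67 ± 0.14, limma adjusted p = 3.28e-05). The ubiquitin ligase gene Smurf2, which marks receptors and SMADs for degradation, had 14.3 ± 1.497 FPKM in Esrp1-KO and 24.0 ± 2.48 FPKM in WT (adjusted p = 0.00197). Smad2, the SMAD that carries the GDF9 signal with Smad3, had 12.6 ± 2.24 FPKM in Esrp1-KO and 20.8 ± 2.46 FPKM in WT (adjusted p = 0.00576). Of 4 antagonists, the Nodal antagonist gene Dand5 fell to 0.812 ± 0.23 FPKM in Esrp1-KO, against 3.85 ± 0.50 FPKM in WT (adjusted p = 7.40e-05), and the follistatin-like gene Fstl1 rose to 6.80 ± 0.76 FPKM, against 3.02 ± 0.71 FPKM in WT (adjusted p = 0.00112). Neither of the 2 tested genes of ligand processing nor the 1 tested SMAD target passed as deposited. With TMM scaling that target, Id3, named after its values were seen, narrowly passed as higher (log2 fold change 0.56, against 0.47 as deposited).

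Of 9 tested genes of FGF signalling 4 fell and none rose, as deposited and with TMM scaling, where 23.1% of all genes fell as deposited. The ligand Fgf10 had 0.746, 0.759, 1.60 and 1.71 FPKM in Esrp1-KO and 4.08, 3.91, 4.42 and 3.95 FPKM in WT (log2 fold change −1.24 ± 0.17, limma adjusted p = 0.000531), so that it exceeded Fgf8 in each WT library. The ligand Fgf9 had 1.18 ± 0.11 FPKM in Esrp1-KO and 3.31 ± 0.40 FPKM in WT (adjusted p = 0.000254). The feedback inhibitor gene Spry1 had 0.537 ± 0.12 FPKM in Esrp1-KO and 2.37 ± 0.49 FPKM in WT (adjusted p = 0.000307).

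Downstream of KIT, genes of the PI3K branch went both ways, with 4 higher, 3 lower and 12 not past the threshold of 19 tested, where 13.9% of all genes were higher and 23.1% lower. Pik3cd, a catalytic subunit of PI3K, had 3.86, 4.71, 5.92 and 4.58 FPKM in Esrp1-KO and 9.03, 8.98, 9.14 and 10.3 FPKM in WT (log2 fold change −0.85 ± 0.13, limma adjusted p = 0.000984). Foxo3, the transcription factor that PI3K signalling restrains and that keeps primordial follicles dormant, rose to 8.62 ± 1.38 FPKM in Esrp1-KO, against 4.92 ± 0.39 FPKM in WT (adjusted p = 0.00378). The kinase gene Akt2 rose to 2.69 ± 0.65 FPKM, against 1.18 ± 0.26 FPKM in WT (adjusted p = 0.00467). Of 15 tested adaptors and regulators of KIT signalling 1 rose, 3 fell and 11 did not pass, beside the same shares of all genes. Socs1, an inhibitor of cytokine signalling, had 0.786, 0.263, 0.143 and 0.406 FPKM in Esrp1-KO and 3.11, 5.21, 4.08 and 6.32 FPKM in WT (log2 fold change −2.01 ± 0.21, limma adjusted p = 9.97e-05). Sos2, a Ras exchange factor, had 0.571 ± 0.17 FPKM in Esrp1-KO and 1.96 ± 0.27 FPKM in WT (adjusted p = 0.000662), and the kinase gene Mapk3 (ERK1) rose to 34.6 ± 12.2 FPKM, against 14.4 ± 1.35 FPKM in WT (adjusted p = 0.00309).

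Of the 3 tested partners of Gja4, Cnst, whose product consortin is a receptor for connexins on their way to the membrane, fell to 4.22 ± 0.48 FPKM in Esrp1-KO, against 8.64 ± 0.66 FPKM in WT (log2 fold change −0.89 ± 0.12, limma adjusted p = 0.000428). No connexin or pannexin other than Gja4 in the files reached a mean of 1 FPKM over the libraries. Gja1 (connexin 43), the main connexin among granulosa cells and named after its values were seen, was listed at 0 in 5 of 8 libraries and was highest in WT replicate 1, with 0.946 FPKM.

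**Figure D5:**
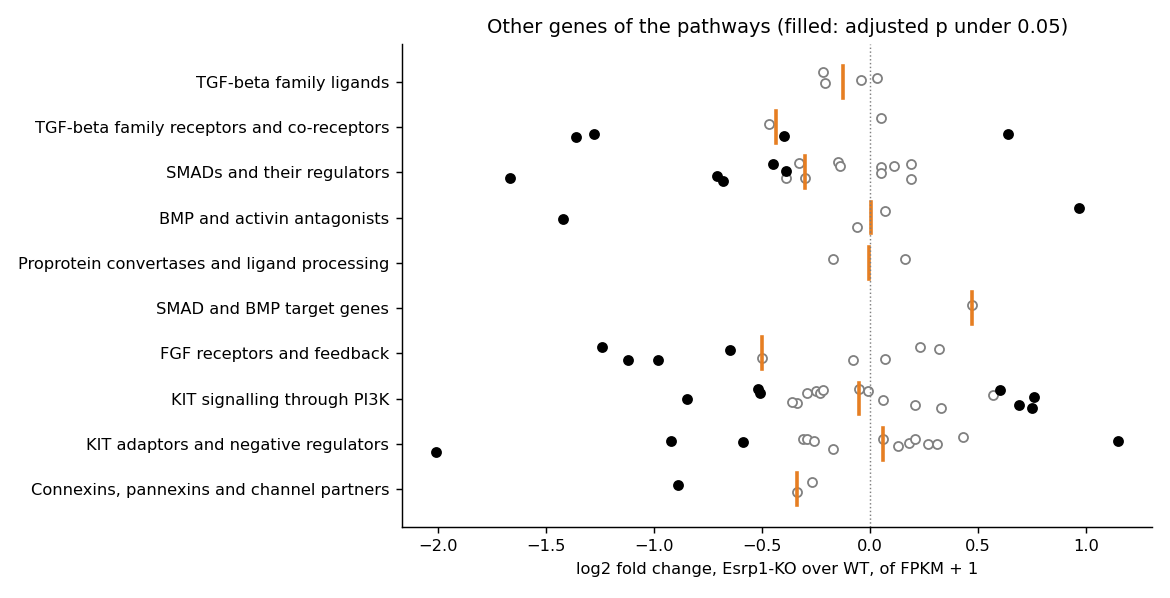
Log2 fold change, Esrp1-KO over WT, on log2(FPKM + 1), of the 78 tested genes in 10 pathway lists, 1 point per gene, filled where the adjusted p from limma is under 0.05, with an orange line at each list's median. SMAD and FGF lists hold filled points only on the lower side, and the PI3K list on both sides.

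The genes whose log2(FPKM + 1) ran most like that of a member across the 8 libraries were taken from all tested protein-coding genes with a name. For Gdf9 they were Tmem175, a lysosomal potassium channel gene (Pearson r = 0.962), Grn, the progranulin gene (0.959), and Mxd1, a MYC antagonist gene (0.947). For Bmp15 they were Ints13 of the Integrator complex (0.965), Myef2 (0.958) and Vezf1 (0.951). For Kit they were Myadm (0.974), Pigm (0.970) and Axin2, a WNT feedback gene (0.958). These are the highest coefficients among all those genes, over 8 libraries, and describe likeness only. Within each library all genes share its depth and preparation. Like Gdf9, Grn spread more widely in Esrp1-KO, with 15.9 ± 8.71 FPKM in Esrp1-KO and 14.03 ± 2.58 FPKM in WT.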

How the data were processed

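The deposited values are FPKM by Ensembl gene, per the file headers, which the authors computed from reads on GRCm38, per the submitters' processing notes. Aligner, counting tool and annotation: not given in the sources used here. Symbols were taken from GENCODE M21. Members and lists were chosen with earlier results of these data known.

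The 8021 genes that averaged 1 FPKM or more were fitted on log2(FPKM + 1), a scale that understates changes of low genes. The fit used limma 3.58.1 (R 4.3.3) with genotype as the only term and a trend of variance with level, in two-sided tests adjusted by Benjamini-Hochberg over all genes at 0.05. All 10 members passed the filter. Ratios were tested over all 70 arrangements (Python 3.11.15, scipy 1.17.1). Read numbers were recovered from FPKM and exon length. The fit was tested on simulated data.

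Named are all members, Esrp1, up to 3 genes per pathway list past the threshold with the smallest p, the 3 genes most like Gdf9, Bmp15 and Kit, and the 2 highest markers per list of other cells. Others, among them Lyz2, Fshr, Fst, Foxl2, Hsd3b1 and Ptgs2, were named after their values were seen. Same-numbered libraries, by the labels' numbers, deviated together (r = 0.226 to 0.317 in 4 pairs). Some unlike numbers did so as much, with 0.402 for Esrp1-KO 1 and WT 4 and 0.252 for Esrp1-KO 2 and WT 3. Others deviated in opposite directions, with −0.329 for Esrp1-KO 1 and WT 2 and −0.407 for Esrp1-KO 2 and WT 4. Replicates 1 and 4 thus ran against replicates 2 and 3 in these same data, and this is the split used in the alternatives. The number entered as a block in an alternative, though the labels mention neither litter nor day.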

Additional observations from a re-analysis of the deposited data

Results flagged for a closer look

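In WT, the level of Gja4 in replicate 3 (11.8 FPKM) lay far below the other 3 libraries (15.7 to 16.3 FPKM): the gap was 0.863 of the group's range, above the 5% critical value of Dixon's test for 4 values. This was 1 of 28 groups of values checked, and chance flags about 1 in 20.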

How the results depend on the processing

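Kitl kept its direction and call under 11 of 12 alternatives, and missed with replicates 2 and 3 alone (−0.54). Leaving out 1 library gave −0.67 to −0.52. Bmpr2 kept its sign but lost its call with no filter on low values (−0.45, its p being adjusted over 24860 genes), TMM (−0.30), quantile (−0.36) and median-of-ratios scaling (−0.32), replicates 1 and 4 alone (−0.56) and 2 and 3 alone (−0.33), with −0.53 to −0.31 over left-out libraries. Bmpr1a lost its call with TMM (−0.23), quantile (−0.25) and median-of-ratios scaling (−0.24), replicates 1 and 4 alone (−0.41) and 2 and 3 alone (−0.29), with −0.37 to −0.31 over left-out libraries. Tgfbr1 passed as higher with TMM (0.35), quantile (0.35) and median-of-ratios scaling (0.34), Bmp6 with quantile normalization (0.45), and Bmp15 with replicates 1 and 4 alone (0.40). Gdf9 turned negative with quantile normalization (−0.04), a common total of nuclear genes (−0.05) and replicates 2 and 3 alone (−0.15), and ran from −0.09 to 0.11 over left-out libraries, turning without Esrp1-KO replicate 1 (−0.09), Esrp1-KO replicate 4 (−0.00058) and WT replicate 3 (−0.02). Over left-out libraries Bmp15 ran from 0.13 to 0.38, Gja4 from −0.59 to −0.30, the Gdf9 to Bmp15 ratio from −0.28 to −0.14, the Kit to Kitl ratio from 0.48 to 0.73 and the Bmpr2 to Bmpr1a ratio from −0.12 to 0.08, which turned positive without Esrp1-KO replicate 1 (0.08). Kit and Fgf8 changed neither sign nor call. Where smaller groups or more tested genes do not account for a lost call, the cause was not tested.

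Members called lower were 3 as reported, 1 with TMM, quantile and median-of-ratios scaling, with a mean of at least 5 FPKM (which leaves Kitl and Bmpr1a untested) and with replicates 1 and 4 alone, 0 with replicates 2 and 3 alone, and 1 to 3 over left-out libraries. With replicates 2 and 3 alone, limma had 1 member lower at an unadjusted p under 0.05. Members called higher were 0 as reported (0 at an unadjusted p under 0.05 by limma, and 0 by voom on recovered reads), 1 with TMM and median-of-ratios scaling and with replicates 1 and 4 alone, 2 with quantile normalization, and 0 to 1 over left-out libraries. Pathway genes called higher were 7, and 4 with replicates 1 and 4 alone. Those called lower were 20, 10 with a mean of at least 5 FPKM and 12 with replicates 2 and 3 alone. With the replicate number as a block, Kitl had −0.59 (limma, adjusted p = 0.00761), Bmpr2 −0.45 (0.0283) and Bmpr1a −0.35 (0.0463), and no member's call changed. For the 4 ratios the sign-flip test over 4 pairs cannot go below 0.125 and so says nothing of their stability. The low counts of Fgf8 limit what could be seen of it.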
